A study of Bos taurus with 30 samples.

Results

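Wnt ligands are secreted, lipid-modified glycoproteins through which neighboring cells signal to each other. In the canonical branch a ligand binds a frizzled receptor with LRP5 or LRP6, beta-catenin is spared from degradation, and TCF and LEF factors switch on targets such as TBXT and AXIN2. In the non-canonical branches, ligands such as WNT5A act through frizzleds with ROR2, RYK or VANGL2 and steer cell polarity and movement. In mammalian embryos canonical Wnt signals are known for inducing the primitive streak in the embryonic disc, where mesoderm and endoderm arise, and non-canonical signals for extending the body axis.

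Expression is described here for 8 Wnt ligand genes of cattle, WNT2B, WNT3A, WNT5A, WNT5B, WNT6, WNT7B, WNT8A and WNT11. Their rows were found by Entrez gene ID among 35092 genes in the count table, and 19 Wnt ligand genes were found there in all. The libraries came from Holstein embryos on day 15, when the conceptus is elongating and the disc begins to gastrulate. In vitro produced (IVP) embryos came from slaughterhouse oocytes that were matured, fertilized and kept in serum-free culture, and they were placed in recipient cows on day 7. In vivo (IVV) embryos were conceived in superstimulated cows by insemination with the same bull. The embryonic disc (ED) and the extra-embryonic membranes (EEM) were cut apart after flushing, so that 7 IVP ED, 9 IVV ED, 6 IVP EEM and 8 IVV EEM libraries were at hand from 17 embryos, and 13 embryos (5 IVP, 8 IVV) gave both tissues. Each procedure drew on very few cows, recipients for the IVP and other cows for the IVV embryos, and several embryos shared a uterus. Procedure and cow therefore cannot be told apart, n counts embryos and not cows, and p-values measure the spread between embryos. Embryos are called by their titles: VE for in vivo embryos, IVP or IVPF for in vitro ones.

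Between 48713218 and 63037371 counts fell on genes per library. Levels are given as raw counts and as CPM, the count relative to the TMM-scaled size of its library. Gene lengths were not used, so levels are compared between groups of libraries and never between genes. In bulk tissue, fewer cells of a type and less RNA per cell cannot be told apart. The disc pieces held membrane cells as well: the summed CPM of 10 trophoblast markers ran from 26100 to 40100 in IVV ED and from 11300 to 64000 in IVP ED, beside 30200 to 49300 in IVV EEM and 27500 to 66100 in IVP EEM. TBXT, a streak gene, held 0 counts in every EEM library and in 2 of the 7 IVP discs, IVPF13 and IVPF15. POU5F1, a pluripotency gene, lay between 0.419 and 2.43 CPM in EEM and between 16.4 and 228 CPM in ED, and the summed CPM of 5 maternal blood genes and of 4 uterine genes did not pass 1.08 and 2.59 in any library. Of the blood genes, HBB, HBA1, HBA and PTPRC did not pass 3 counts in any EEM library and CD3E reached 9, while in the ED PTPRC reached 64 counts (IVV) and HBA 21 (IVP). The uterine gene MUC16 held 0 to 38 counts in the IVV ED and 0 to 1 in the IVV EEM. Its mean was 0.14 CPM in the IVV ED and 0.285 CPM in the IVP EEM. The epiblast marker SOX2 was listed at 0 in every library although NANOG and POU5F1 were not.

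Of the 8 genes, 6 passed the filter on low counts in each tissue. WNT5A and WNT3A were lower in the IVP ED, and none of the 6 was higher there, whereas 4.95% of the 15733 genes tested in the ED were called lower and 1.4% higher (edgeR's quasi-likelihood test, Benjamini-Hochberg adjusted p under 0.05). In the EEM none of the 6 was called by edgeR, with 2 at an unadjusted p under 0.05 and 1 called by DESeq2, beside 1.52% of 14718 genes called lower and 2.29% called higher. For no ligand of the 8 did every IVP library lie below, or every one above, all IVV libraries of the tissue. Such a full separation was seen for 0.718% (below) and 0.14% (above) of the genes in the ED, and for 0.374% (below) and 0.523% (above) in the EEM.

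**Figure D1:**
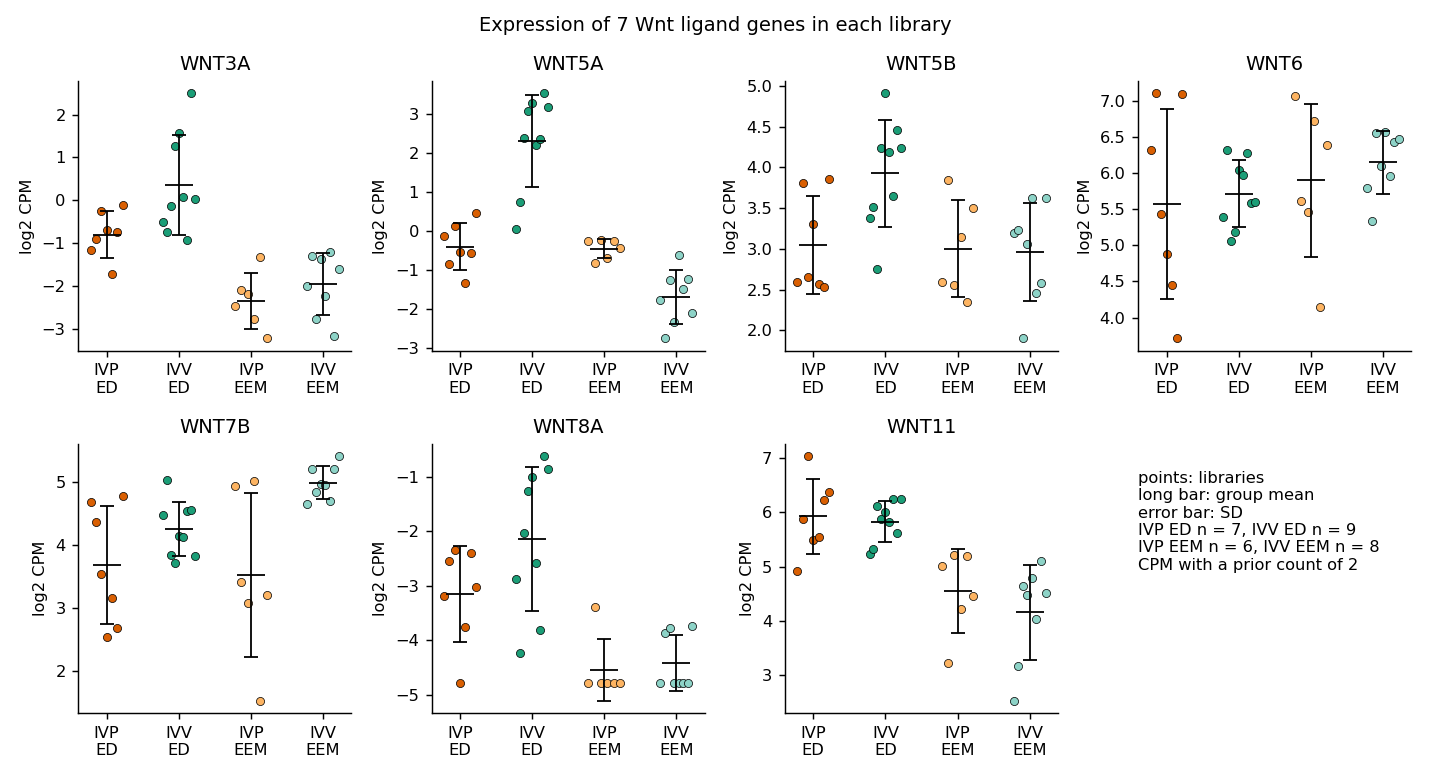
Log2 CPM (y axis) of 7 Wnt ligand genes in each of the 30 libraries, by group (x axis). Points are libraries, the long bar is the group mean and the error bar is the SD. The IVV ED stand apart for WNT5A, with 7 of 9 discs at 4.55 CPM or more, the EEM libraries lie at the bottom for WNT8A, and WNT6 and WNT7B spread widely in the IVP groups.

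WNT5A (Entrez ID 530005), the main non-canonical ligand of the gastrulating embryo, had the largest fitted difference among these genes in the ED, in the EEM, between the tissues of IVV embryos and for the interaction. Its counts ran from 49 over a median of 348 to 746 in the 9 IVV ED and from 19 over 41 to 77 in the 7 IVP ED. That is 6.17 ± 3.6 CPM (SD, n = 9) against 0.776 ± 0.332 CPM (SD, n = 7). In 5 of the 7 IVP discs the level lay under that of every IVV disc, and the overlap came from VE19, the lowest IVV disc, with 0.989 CPM. The next lowest, VE24, had 1.64 CPM, and the other 7 IVV discs ranged from 4.55 to 11.5 CPM. WNT5A fell by 3.13 on the log2 scale in the IVP ED (SE 0.43, adjusted p = 6.78e-05). The call held in each of 30 alternative settings, with log2 fold changes between -3.25 and -2.02 and a highest adjusted p of 0.025.

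In the EEM the order was the other way around. WNT5A held 7 to 28 counts in the IVV EEM (median 15) and 27 to 45 in the IVP EEM (median 39.5), or 0.305 ± 0.162 CPM (SD, n = 8) and 0.705 ± 0.121 CPM (SD, n = 6). Of the 6 IVP EEM libraries, 4 lay above every IVV one, and VE29 was the highest IVV library with 0.617 CPM. The difference was 1.19 on the log2 scale (SE 0.38, adjusted p = 0.0827) and did not pass the threshold. It did pass with DESeq2 (adjusted p = 0.0431) and without VE29 (log2 fold change 1.42, adjusted p = 0.0256).

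Within embryos, WNT5A was higher in the ED than in the EEM of 8 of 8 IVV embryos, by 1.81 to 5.64 on the log2 scale, and of only 2 of 5 IVP embryos, by at most 0.35. The fitted ED over EEM difference was 4.05 in IVV embryos (SE 0.34, adjusted p = 4.83e-08) and -0.13 in IVP embryos (SE 0.39, adjusted p = 0.914). The interaction of tissue and procedure was -4.18 (SE 0.51, adjusted p = 2.78e-04). edgeR called the interaction for no other of the 7 ligands tested, against 0.918% of 16784 genes called negative and 0.107% called positive. The IVV ED had the highest group mean and the IVV EEM the lowest. The IVP ED and IVP EEM lay between them with no clear order, since the mean was higher in the ED (0.776 against 0.705 CPM), the median in the EEM (0.657 against 0.747 CPM), and their ranges overlapped.

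WNT3A (Entrez ID 522467), a canonical ligand of the streak and of the axial progenitors that follow it, was lower in the IVP ED by a smaller margin. Its counts were 28 to 367 in IVV ED (median 62) and 14 to 51 in IVP ED (median 29), with 1.73 ± 1.69 CPM (SD, n = 9) against 0.570 ± 0.213 CPM (SD, n = 7). The groups overlapped, since only 2 of 7 IVP discs lay under the lowest IVV disc. VE5, VE29 and VE28 carried the high end with 5.64, 2.94 and 2.35 CPM, and the other 6 IVV discs had between 0.491 and 1.02 CPM. WNT3A fell by 1.70 on the log2 scale (SE 0.49, adjusted p = 0.0374). The call held in 15 of 30 alternative settings. It was lost when any one of IVP10, IVP11, IVPF10, IVPF13, IVPF14, VE28, VE29 or VE5 was left out, with adjusted p from 0.0547 to 0.192 in those cases, the last without VE5 (log2 fold change -1.14).

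In the EEM WNT3A was near its lower limit, with 4 to 23 counts in IVV and 4 to 18 in IVP libraries, and no difference was called (log2 fold change -0.48, SE 0.47, adjusted p = 0.828). The ED exceeded the EEM in 8 of 8 IVV embryos and in 5 of 5 IVP embryos. The difference was 2.53 in IVV embryos (SE 0.39, adjusted p = 6.98e-05) and 1.33 in IVP embryos (SE 0.49, adjusted p = 0.145), and the interaction was -1.20 (SE 0.63, adjusted p = 0.544). The order of the means was IVV ED, IVP ED, IVV EEM and IVP EEM, and all but 1 of the 6 IVP EEM libraries lay within the range of the IVV EEM.

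WNT8A (Entrez ID 540199), a canonical ligand known from the early streak of vertebrate embryos, was at the edge of detection. The IVV ED held 1 to 40 counts (median 14) and the IVP ED 0 to 10 (median 5), whereas no EEM library held more than 3 counts, taken here as the floor. The highest discs were VE5 with 40 counts, VE6 with 34 and VE29 with 29, and VE24 and VE4 held 1 and 2. WNT8A was at least 4.65-fold higher in the IVV ED than the floor of the IVV EEM and at least 1.58-fold higher in the IVP ED than the floor of the IVP EEM. WNT8A passed the filter between tissues mainly through the IVV ED, the group where it was high, so its fitted difference between tissues is not read as a test. The disc held more than the membranes in 7 of 8 IVV and 5 of 5 IVP embryos. Too few counts kept WNT8A from the IVP against IVV tests. Without the filter, the difference in the ED was -1.58 (SE 0.69, adjusted p = 0.171).

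Some markers of the disc itself also differed between the procedures, and their values stand here beside those of WNT5A, WNT3A and WNT8A. POU5F1 lay between 16.4 and 39.6 CPM in the IVP ED and between 26.9 and 228 CPM in the IVV ED, and it fell by 1.72 on the log2 scale in the IVP ED (SE 0.36, adjusted p = 0.0048). It was the only one of 5 epiblast markers tested that edgeR called there: NANOG was at -1.34 (SE 0.41, adjusted p = 0.0517), SALL4 at -0.28, DNMT3B at -0.22 and LIN28A at -0.10. Of 6 streak and mesoderm markers, 5 were called lower in the IVP ED, and their summed CPM were 6.96 to 16.7 in IVP and 21.2 to 147 in IVV discs. Of 10 trophoblast markers and 6 tested of 8 hypoblast markers, edgeR called none in the ED, DESeq2 also called none, and none had an unadjusted p under 0.05. The 2 untested hypoblast markers were AFP, at 3352 counts in VE6, 475 in VE29 and 282 in VE26 and at most 1 in the IVP discs, and TTR, at 4 to 45 counts in IVV and 0 to 4 in IVP discs. VE5, the disc with most WNT5A, WNT3A and WNT8A, also held most POU5F1 (228 CPM) and most TBXT (32.8 CPM).

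When the log2 CPM of POU5F1 entered the ED model as a further term, a setting chosen after these values were seen, WNT5A remained lower in the IVP ED by 2.02 on the log2 scale (adjusted p = 0.0195). WNT3A was no longer called and its sign turned (log2 fold change 0.46, adjusted p = 0.805). In that setting 1.1% of the genes were called, against 6.34% without the term. POU5F1 was itself lower in the IVP ED, so the term can take up part of the difference between procedures. The setting cannot tell the 2 apart. In 2 IVV discs, VE4 and VE24, POU5F1 lay within the range of the IVP discs, at 26.9 and 35.2 CPM. VE4 held 0.491 CPM of WNT3A and 5.02 CPM of WNT5A, and VE24 held 0.564 and 1.64 CPM, where the highest IVP disc had 1.33 CPM of WNT5A. VE4 thus stood well above the IVP discs for WNT5A and VE24 only just above them. VE19 stood otherwise, with 66.4 CPM of POU5F1, above every IVP disc, and 0.989 CPM of WNT5A. It held 1.78 CPM of TBXT, where the highest IVP disc, IVPF14, held 1.48 CPM.

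**Figure D2:**
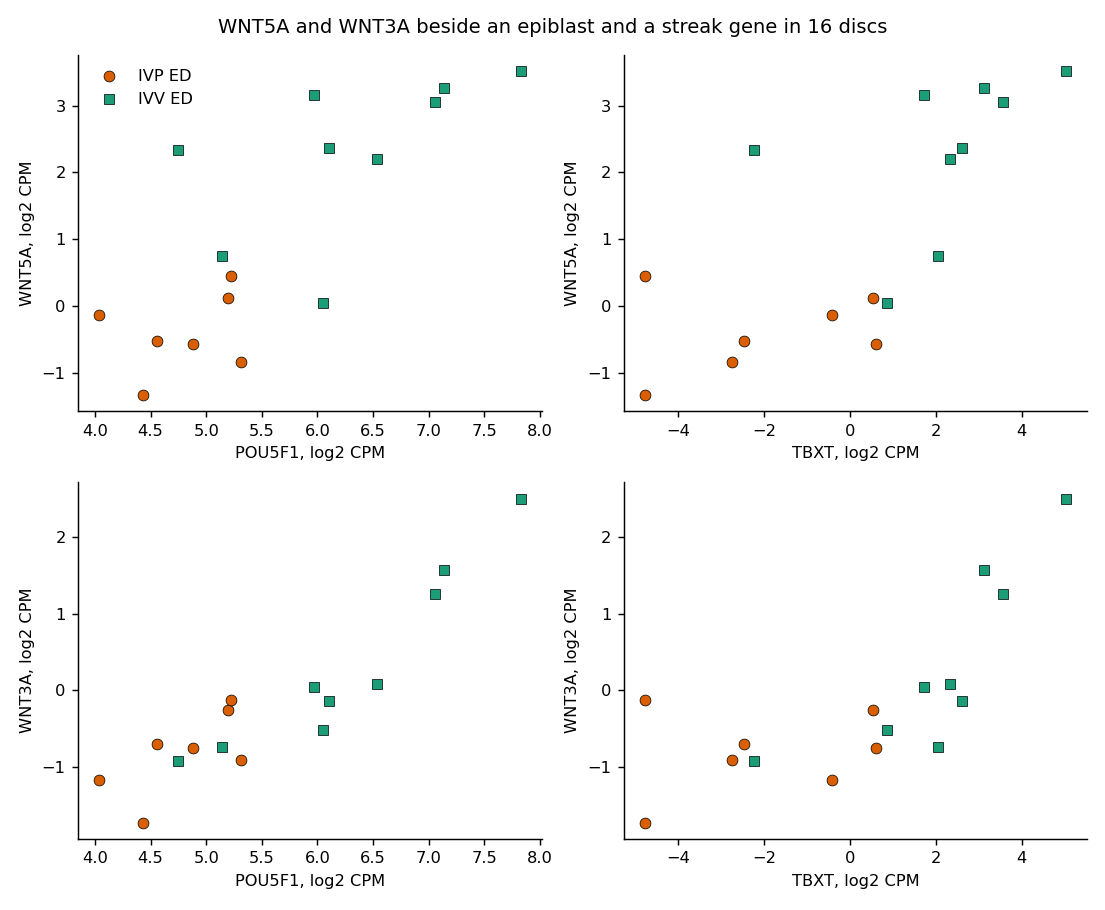
Log2 CPM of WNT5A (upper row) and WNT3A (lower row) against log2 CPM of POU5F1 and TBXT in the 16 ED libraries, 7 IVP (circles) and 9 IVV (squares). WNT3A lies along one band with POU5F1 in both groups, while of the 2 IVV discs at POU5F1 levels shared with IVP discs, VE4 holds 5.02 and VE24 1.64 CPM of WNT5A, and no IVP disc more than 1.33 CPM.

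WNT5B (Entrez ID 508008), a close paralog of WNT5A that also acts mostly without beta-catenin, was well expressed in every library. It held 453 to 1890 counts in IVV ED (median 1053) and 298 to 838 in IVP ED (median 392). The IVV ED stood at 16.5 ± 7.1 CPM (SD, n = 9) and the other groups lower: 8.87 ± 3.91 in IVP ED (n = 7), 8.57 ± 3.68 in IVP EEM (n = 6) and 8.31 ± 3.14 in IVV EEM (n = 8). In the ED 4 of 7 IVP discs lay under every IVV disc. The difference was -0.92 on the log2 scale (SE 0.30, adjusted p = 0.0762), short of the threshold. It was called with DESeq2 (adjusted p = 0.0394), without the filter (0.048), in the embryos with both tissues (0.0484) and when any one of IVP11, IVPF15, VE24, VE26 or VE4 was left out (0.0152 to 0.0447). With POU5F1 as a term the difference was -0.17 (adjusted p = 0.951).

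No difference in WNT5B between procedures was called in the EEM (log2 fold change 0.06, SE 0.28, adjusted p = 0.991). The ED exceeded the EEM in 8 of 8 IVV embryos, by 0.94 in the fit (SE 0.17, adjusted p = 2.77e-04), and in 3 of 5 IVP embryos (-0.10, SE 0.21, adjusted p = 0.857). The interaction was -1.04 (SE 0.27, adjusted p = 0.0653). With DESeq2 it was called (adjusted p = 0.0111), as it was without VE19 (0.0429) or VE24 (0.0403).

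**Figure D3:**
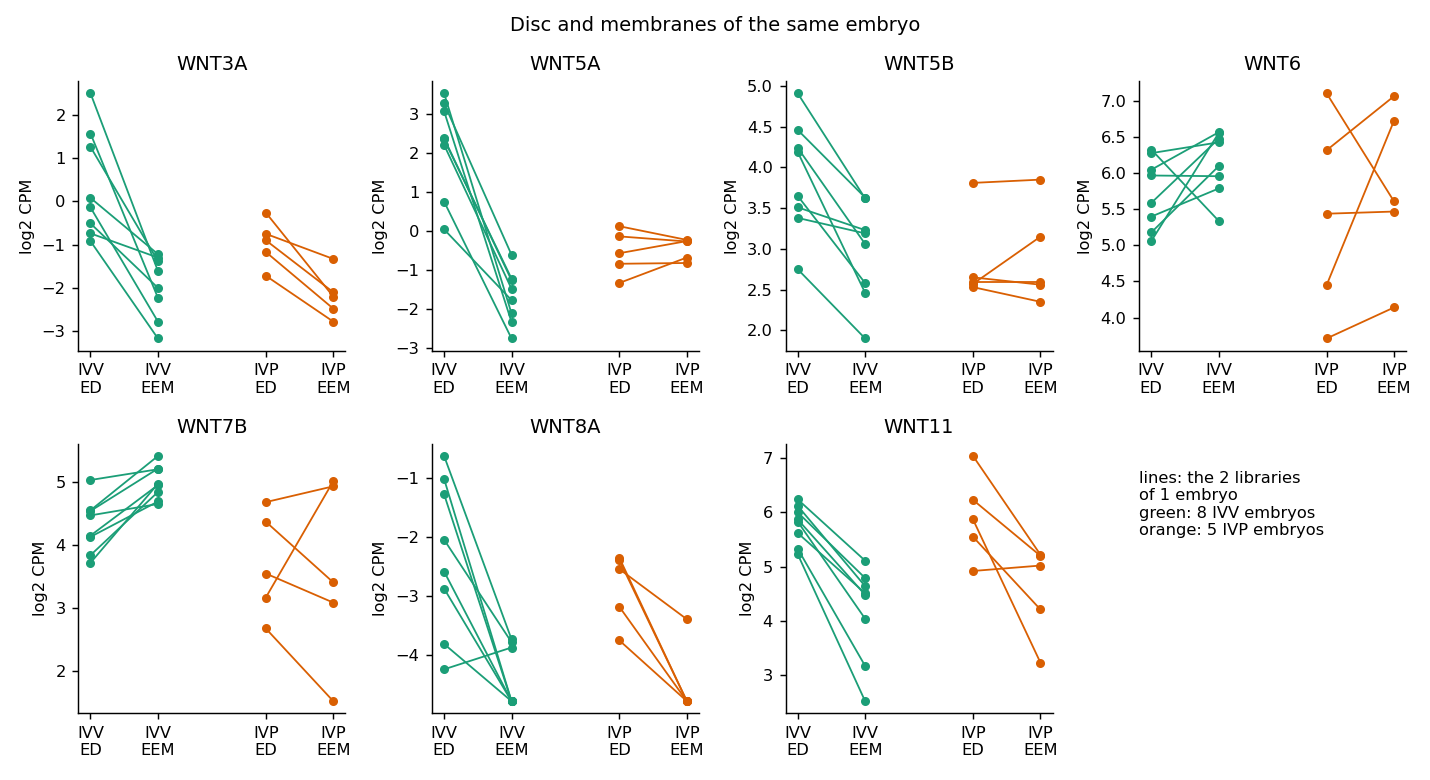
Log2 CPM (y axis) of 7 Wnt ligand genes in the ED and EEM of the same embryo, joined by a line, in 8 IVV (green) and 5 IVP (orange) embryos. The WNT5A lines drop from ED to EEM in every IVV embryo and the ED over EEM difference lies between -0.65 and 0.35 in the IVP embryos, and WNT7B rises from ED to EEM in each of the 8 IVV embryos.

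WNT11 (Entrez ID 613288), a non-canonical ligand known for cell movements at gastrulation and in the heart field, marked the disc under both procedures. Counts were 1853 to 4955 in IVV ED (median 3473), 1629 to 8263 in IVP ED (median 2802), 266 to 1841 in IVV EEM (median 1063.5) and 477 to 2058 in IVP EEM (median 1421). In IVV embryos the ED exceeded the EEM in 8 of 8, by 1.62 (SE 0.23, adjusted p = 2.32e-05). In IVP embryos it did so in 4 of 5, by 1.32 (SE 0.30, adjusted p = 0.00997), and IVP10 was the exception, its disc at 30.2 CPM and its membranes at 32.4 CPM. The IVP call was lost without the embryo block in the same libraries (adjusted p = 0.0617), kept without it over all 30 libraries (1.37, adjusted p = 0.00966), and lost without IVP14 (1.18, adjusted p = 0.0707), the disc with most WNT11 at 132 CPM. Procedure made no called difference in the ED (log2 fold change 0.13, SE 0.25, adjusted p = 0.868) or the EEM (0.24, SE 0.31, adjusted p = 0.918). WNT11 was the only ligand of 7 called between tissues in IVP embryos, where 4.18% of 16784 genes were called higher and 0.649% lower in the ED.

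In IVV embryos, by contrast, WNT3A, WNT5A, WNT5B and WNT11 were called higher in the ED and WNT7B lower, beside 15.6% of the genes called higher and 6.55% lower. Those 4 were higher in the ED of each of the 8 IVV embryos, which held for 12.2% of the genes tested. In the 5 IVP embryos, WNT3A and WNT8A were higher in each ED, which held for 9.04% of the genes. With 5 IVP and 8 IVV pairs, a contrast called in one procedure and not in the other does not show that they differ: edgeR called that difference for WNT5A alone, and DESeq2 for WNT5A and WNT5B.

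WNT7B (Entrez ID 100337066), a canonical ligand known from epithelia and from the chorion of the placenta, was the one ligand called lower in the ED than in the EEM. Its counts were 1176 to 2273 in IVV EEM (median 1504), 730 to 1971 in IVV ED (median 1098), 331 to 1586 in IVP ED (median 734) and 142 to 1496 in IVP EEM (median 532.5). All 8 IVV embryos had more in the EEM, by 0.68 in the fit (ED over EEM -0.68, SE 0.23, adjusted p = 0.0385), but the call was lost without the embryo block (adjusted p = 0.252) and when any one of VE26, VE28, VE29, VE3, VE4 or VE5 was left out (up to 0.109). In IVP embryos no difference between the tissues was called (0.09, SE 0.31, adjusted p = 0.925), and the interaction was 0.77 (SE 0.38, adjusted p = 0.511; without IVPF13 it was 1.22 with adjusted p = 0.0434).

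In the IVP EEM, 4 of 6 libraries lay under every IVV library for WNT7B. The means were 15.6 ± 12.4 CPM (SD, n = 6) and 32.2 ± 6.0 CPM (SD, n = 8). IVP10 and IVPF13 reached 30.5 and 32.1 CPM, within the IVV range of 25.1 to 42.5, and IVPF14 held 2.84 CPM. The difference was -1.05 on the log2 scale (SE 0.36, adjusted p = 0.116). It was called with 2 surrogate variables (-0.92, adjusted p = 0.0338) and without IVP10 (0.0416), IVPF13 (0.0195) or VE19 (0.0121). In the ED the difference was -0.40 (SE 0.31, adjusted p = 0.568).

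WNT6 (Entrez ID 505075), a ligand known from epithelia and the trophoblast, was not called in any contrast. Its counts were 2014 to 4853 in IVV ED (median 3177), 678 to 7958 in IVP ED (median 2712), 2511 to 5177 in IVV EEM (median 3889) and 878 to 6571 in IVP EEM (median 3641). The log2 fold change between procedures was 0.25 in the ED (SE 0.38, adjusted p = 0.822) and -0.04 in the EEM (SE 0.31, adjusted p = 0.994). ED over EEM was -0.42 in IVV (SE 0.28, adjusted p = 0.303) and -0.43 in IVP embryos (SE 0.38, adjusted p = 0.623).

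WNT6 and WNT7B ranged widely among IVP embryos. Over all genes, the median SD of log2 CPM was 0.66 in IVP ED, 0.53 in IVV ED, 0.54 in IVP EEM and 0.56 in IVV EEM. The highest IVP disc held 10.6 times as much WNT6 as the lowest, against 2.42 times among the IVV discs, and in the EEM the ratios were 7.61 and 2.35. The SD of log2 CPM was 1.32 in IVP ED and 1.06 in IVP EEM, higher than for 94.9% and 91.0% of the genes that passed the filter over all libraries, and 0.47 and 0.44 in the IVV groups. For WNT7B the highest over lowest ratio was 4.73 in IVP ED and 2.5 in IVV ED, and 11.3 in IVP EEM and 1.69 in IVV EEM, with SDs in the IVP groups of 0.93 (above 83.8% of the genes) and 1.3 (above 95.1%). WNT11 also had a wider range in IVP ED, with ratios of 4.37 and 2.02, but its SD of 0.69 was close to the median. No test of the spread was made. The same IVP discs were high for both genes: IVP11, IVPF15 and IVP10 held 138, 137 and 80.1 CPM of WNT6 and 20.6, 27.4 and 25.6 CPM of WNT7B, while IVPF14 held 13.1 and 6.38 CPM, and IVPF10 had the least WNT7B at 5.79 CPM. IVPF14 was the lowest IVP EEM library for both genes, with 17.6 CPM of WNT6 and 2.84 CPM of WNT7B. IVPF13 changed sides, with 21.7 CPM of WNT6 in its disc and 106 in its membranes. The summed trophoblast markers of the IVP discs were 64000 CPM in IVP11, 49600 in IVP10, 39700 in IVPF13, 31600 in IVPF15, 31400 in IVPF14, 23900 in IVP14 and 11300 in IVPF10, and their part in this range was not tested.

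WNT5A, WNT3A and WNT8A spread most among the IVV discs instead, with SDs of log2 CPM of 1.19, 1.17 and 1.32, higher than for 94.1%, 93.7% and 96.1% of the genes. In the IVP discs WNT5A and WNT3A had SDs of 0.60 and 0.54, under the median of 0.66 for all genes there, and WNT8A had an SD of 0.88, above that of 79.4% of the genes. WNT11 was the steadiest ligand of the IVV discs with an SD of 0.37.

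WNT2B (Entrez ID 445420), a canonical ligand, was listed at 0 in each of the 30 libraries, and so carries no comparison. Its span lies inside that of ST7L in the RefSeq annotation of ARS-UCD2.0, an assembly other than the one the reads were aligned to. Of 1068 protein-coding genes that lie inside another gene there, 67.7% were at 0 in every library, whereas this was 11.5% of 13750 genes without an overlap and 1.87% of 6029 with a partial one. SOX2 belongs to the same class. A count of 0 for WNT2B is therefore not evidence that the gene was silent. WNT5A, WNT5B and WNT11 partly overlap other genes (LOC104975559, FBXL14 and LOC132342346), and the libraries kept no strand, so reads of overlapping genes cannot be assigned with certainty.

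**Figure D4:**
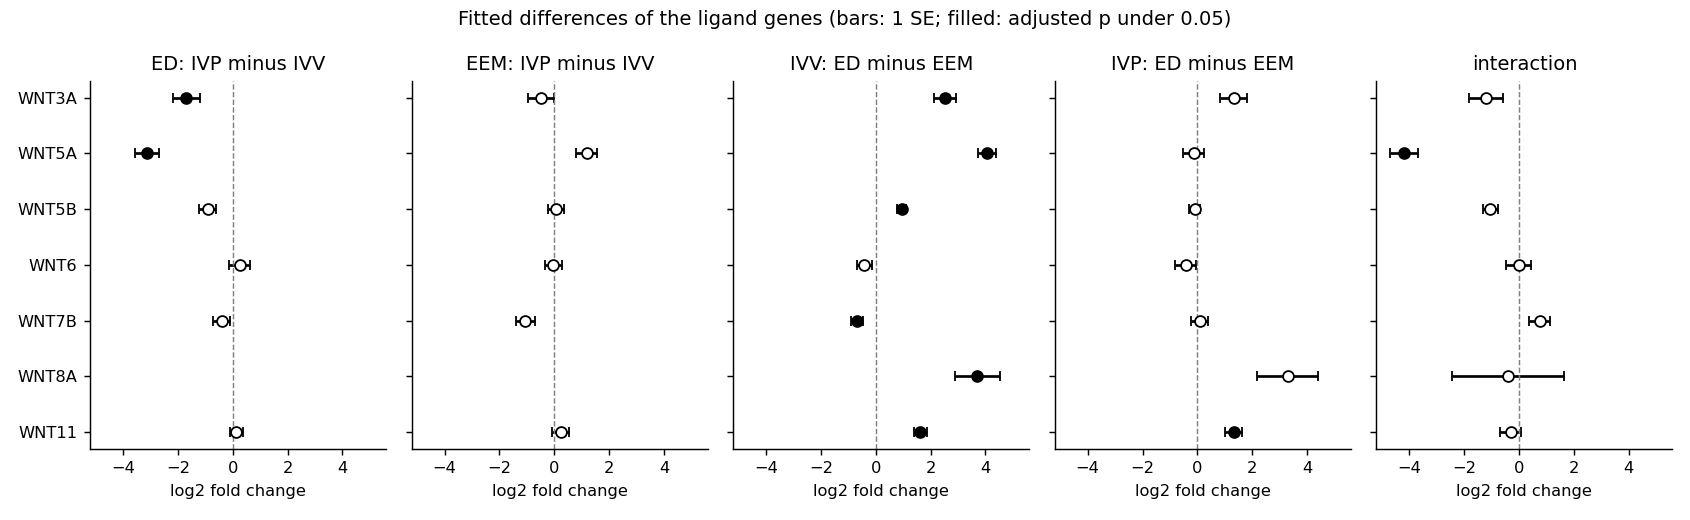
Fitted log2 fold changes (x axis) of 7 Wnt ligand genes in 5 contrasts, with bars of 1 SE; filled points have an adjusted p under 0.05 and missing points were not tested; WNT8A entered the tissue contrasts mainly through the IVV ED, where it was high. WNT5A is at -3.13 in the ED, 1.19 in the EEM and -4.18 for the interaction, and WNT6 stays near 0 in each contrast.

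Genes with the most similar profile were sought among named genes that passed the filter, as a description only, since the libraries share tissue, procedure and depth. Over the 16 ED libraries, WNT5A was most like APLNR, the apelin receptor of early mesoderm (Pearson r = 0.968), then PRKD1 (0.959) and ZNF516 (0.954). APLNR was also first over all 30 libraries (0.927), followed by LRRC4B (0.901). WNT3A was most like ADGRL1, DLGAP3 and RARG in the discs (0.955, 0.954 and 0.952) and like DOK5, OLIG3 and ZNF550 over all libraries (0.910, 0.908 and 0.908). WNT8A, over all libraries, was most like TLE2, NT5M and STAT5A (0.890, 0.887 and 0.878).

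WNT11 was most like COLGALT1, GSN and IHH in the discs (0.878, 0.868 and 0.864), like GSN, CCDC47 and ITFG1 in the EEM (0.946, 0.930 and 0.912) and like FGFR1, GSN and OCA2 over all libraries (0.920, 0.905 and 0.893), GSN being the actin-severing protein gelsolin. WNT6 was most like PRR5, RABL6 and RNPEPL1 in the discs (0.962, 0.944 and 0.936) and CEP170B, ZXDC and PPP1R37 in the EEM (0.924, 0.910 and 0.909), with CEP170B first again over all libraries (0.931). WNT7B was most like SLC22A23, ABHD17A and CDYL in the discs (0.919, 0.907 and 0.903), and KIF26B, SCNN1B and RBBP8NL in the EEM (0.909, 0.909 and 0.895). WNT5B had lower values, with DPP7, CTSF and FAT4 in the discs (0.878, 0.864 and 0.860) and SMTNL2, RNF19B and COL9A2 over all libraries (0.800, 0.798 and 0.775). In the EEM, WNT5A was most like BCL-XLP2, RMDN1 and CNGB3 (0.910, 0.909 and 0.879), none of them among its nearest genes in the discs.

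The rest of the pathway was read from a list of 89 genes by role, of which 87 were found. In the ED 77 of them were tested, and 16 were lower and 2 higher in IVP, where 4.95% and 1.4% of all genes were. In the EEM 62 were tested, and 3 were lower and 3 higher, beside 1.52% and 2.29% of all genes. In the lower group of 2 of these ED calls (RSPO4 and SFRP4) and 2 of these EEM calls (LGR5 and WNT9A) no library reached 10 counts, so they passed the filter through the group where they were high, and only their counts are given. NOTUM and CDX1, with means of 0.0982 and 0.071 CPM in the IVP ED, also passed it mainly through the IVV ED. The list includes the other 11 ligand genes, and among these the ED calls were split. WNT3, the ligand that starts the streak in the mouse, held 9 to 45 counts in IVP and 51 to 521 in IVV discs, and the groups did not overlap. WNT16 was also lower in the IVP ED (log2 fold change -2.33, SE 0.48, adjusted p = 0.00388), and so was WNT10B, which lies outside the 3 genes that the naming rule takes (-3.21, SE 0.72, adjusted p = 0.00799). WNT9B went the other way, with 36 to 174 counts in IVP discs and 4 to 26 in IVV discs, again without overlap (2.23, SE 0.42, adjusted p = 0.00184).

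In the EEM, WNT4 held 161 to 439 counts in IVP and 7 to 85 in IVV libraries, did not overlap, and rose by 2.36 on the log2 scale (SE 0.37, adjusted p = 3.01e-04). WNT10A was higher by 1.28 (SE 0.29, adjusted p = 0.00998), and WNT9A held 2 to 7 counts in IVP and 8 to 27 in IVV libraries. WNT4 resembled WNT5A in that IVP membranes held as much as discs: 5.46 ± 2.33 CPM in IVP EEM and 5.55 ± 3.05 in IVP ED, against 1.08 ± 0.55 in IVV EEM and 5.88 ± 3.05 in IVV ED (SD, n = 6, 7, 8 and 9). Unlike WNT5A, it showed no called difference in the ED (-0.09, SE 0.43, adjusted p = 0.953). Beside these EEM values, the hypoblast marker TTR was at the floor in the IVP EEM with at most 1 count and held 0 to 224 counts in the IVV EEM, a mean at least 37.2-fold above that floor. Of 7 hypoblast markers tested in the EEM, TTR was the only one called. The others lay between -0.05 (SOX17) and 0.51 (APOA1) on the log2 scale. The summed CPM of the hypoblast markers had a median of 1480 in IVP EEM and 1040 in IVV EEM. edgeR called none of 10 trophoblast markers there, with 1 at an unadjusted p under 0.05 and none called by DESeq2. The part of the markers in the EEM values was not tested.

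**Figure D5:**
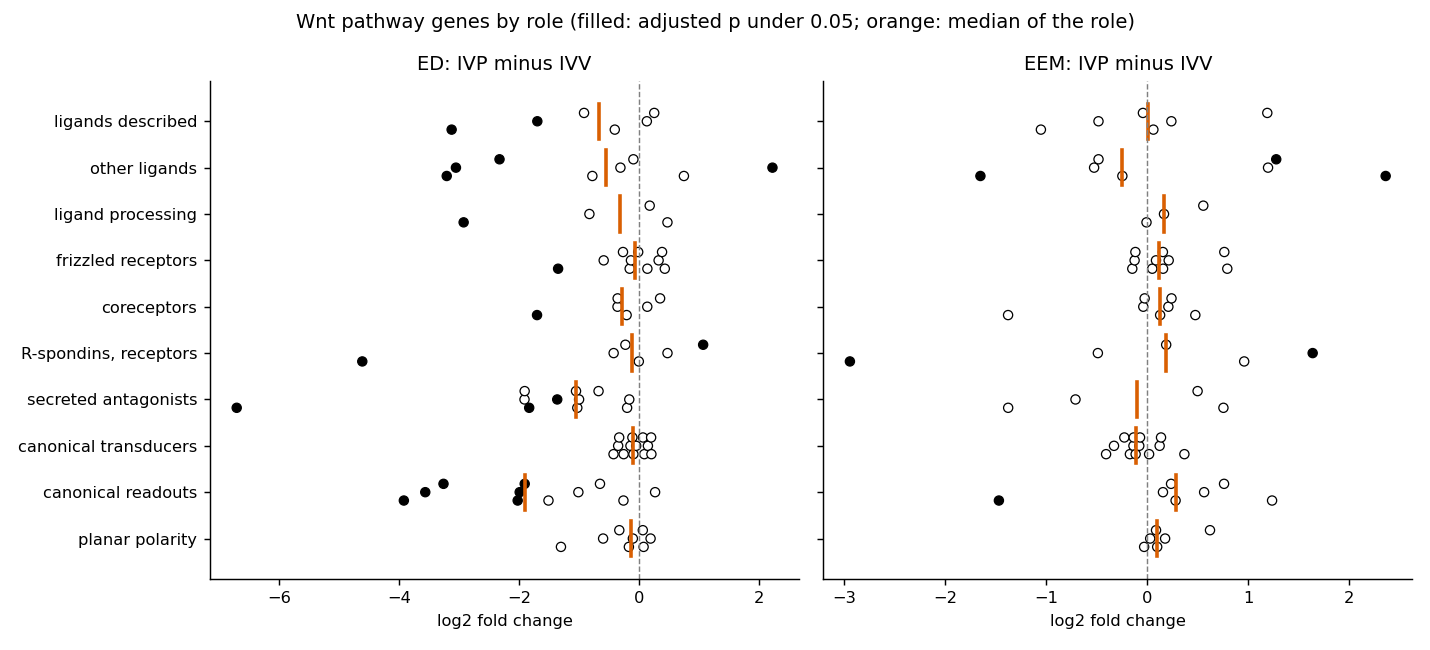
Log2 fold changes (x axis) of IVP over IVV in the ED and the EEM for Wnt pathway genes grouped by role (y axis); filled points have an adjusted p under 0.05 and the orange bar is the median of the role. In the ED the medians are -1.91 for canonical readouts and -1.05 for secreted antagonists, and -0.09 for canonical transducers.

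Over all genes, 6.34% were called in the ED. Of 10 frizzled genes tested in the ED only FZD2 was lower (-1.35, SE 0.41, adjusted p = 0.0478). Of 6 coreceptors only ROR2, the receptor through which WNT5A is known to act, was lower (-1.70, SE 0.43, adjusted p = 0.0173), with 2.50 ± 1.33 CPM in IVP and 7.86 ± 5.40 CPM in IVV discs (SD, n = 7 and 9). In the EEM edgeR called none of these 10 frizzleds and none of 7 coreceptors, with 2 and 0 at an unadjusted p under 0.05, and DESeq2 called none. ROR2 was low there in both procedures, at 0 to 19 counts in IVP and 1 to 55 in IVV libraries.

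R-spondins amplify Wnt signals by way of LGR receptors. RSPO4 held 0 to 9 counts in the IVP ED and 2 to 262 in the IVV ED. RSPO3 was higher in both IVP tissues, by 1.07 in the ED (SE 0.30, adjusted p = 0.0341) and by 1.64 in the EEM (SE 0.33, adjusted p = 0.00342). LGR5, a receptor of the R-spondins, held 0 to 5 counts in the IVP EEM and 11 to 41 in the IVV EEM, without overlap.

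Of 11 secreted antagonists tested in the ED, 3 were lower and none was higher (median log2 fold change -1.05, against -0.01 over all genes). SFRP4, a secreted decoy for Wnt proteins, was at the floor in each IVP disc with at most 1 count, and held 0 to 107 counts in IVV discs, a mean at least 8.83-fold above the floor. DKK3 and SFRP1 were lower by smaller amounts (-1.83, SE 0.54, adjusted p = 0.0441 and -1.36, SE 0.41, adjusted p = 0.0448). Among ligand-processing genes, NOTUM, which strips the lipid from Wnt proteins, averaged 0.0982 CPM in the IVP ED, where the floor was 0.0552 CPM. It passed the filter mainly through the IVV ED, so its fitted difference (-2.93, SE 0.55) is not read as a test. PORCN and WLS, needed to make and release the ligands, were not called in either tissue.

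Canonical readouts were the role with most calls in the ED, 6 lower of 11 tested and none higher (median -1.91). Those called were LEF1, NKD1 and TBX6, and, outside the naming rule, TBXT, CDX1 and CDX4. CDX1 passed the filter mainly through the IVV ED. Not called were AXIN2 (-0.65, adjusted p = 0.341), TCF7 (-1.01, adjusted p = 0.0519), SP5 (-1.51, adjusted p = 0.0737), NKD2 (0.27) and APCDD1 (-0.26). LEF1, a transcription factor that binds beta-catenin, had 0 to 60 counts in IVP and 44 to 691 in IVV discs (-3.57, SE 0.60, adjusted p = 7.17e-04). NKD1, a feedback inhibitor, was lower in both IVP tissues (ED -1.99, SE 0.34, adjusted p = 8.59e-04 and EEM -1.47, SE 0.35, adjusted p = 0.0145). It was the only one of 7 readouts called in the EEM, where the median of the role was 0.28. TBX6, of the presomitic mesoderm, was lower in the ED (-2.03, SE 0.39, adjusted p = 0.00221). TBXT and TBX6 are mesoderm genes as well, and the lower marker levels of the IVP discs given above stand beside these calls. Of 13 transducers such as CTNNB1, APC and DVL1, edgeR and DESeq2 called none in the ED or the EEM, none had an unadjusted p under 0.05, and the medians were -0.09 and -0.11. Of 8 planar polarity genes in the ED, edgeR called none, with 1 at an unadjusted p under 0.05 and 1 called by DESeq2. With POU5F1 as a term in the ED, 2 of the pathway genes were called lower and none higher. Over all 15733 genes, 125 were then called lower and 48 higher, 1.1% in all against 6.34% without the term.

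Between tissues, 37 of 79 pathway genes were higher and 1 lower in the ED of IVV embryos, beside 15.6% and 6.55% of all genes, and 11 were higher in the ED of IVP embryos, beside 4.18%. Of these calls, 10 in IVV and 7 in IVP embryos had no EEM library at 10 counts, and they too passed the filter through the ED. The interaction was called for WNT3, WNT4, TBX6 and SFRP2 on the negative side and for LGR5 on the positive side. SFRP2 in the IVV EEM and LGR5 in the IVP EEM had no library at 10 counts, so these calls of SFRP2 and LGR5 are not read as tests.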

How the data were processed

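Poly(A) RNA of the ED and EEM was sequenced without strand as paired 100-base reads. SOAPnuke, STAR (on ARS-UCD1.3) and featureCounts were used by the authors for filtering, alignment and counting, and the deposited values are raw counts per library, with no normalization. The submitters' processing notes give STAR 2.7.0b, Subread 2.0.3 and FastQC 0.11.9. Symbols were matched by Entrez ID to the RefSeq annotation of ARS-UCD2.0, used for names and neighboring genes only. The 8 ligands and all gene lists were chosen with earlier results of these data known.

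Counts were analyzed with edgeR 4.0.16 in R 4.3.3 (TMM, filterByExpr at 10 counts, quasi-likelihood test, Benjamini-Hochberg adjusted p under 0.05 over all genes tested), with 1 surrogate variable from sva 3.50.0 within each tissue. For tissues and the interaction, the 26 libraries from 13 embryos that gave both tissues entered a fit with embryo as a block, since titles give the embryo. Log2 CPM had a prior count of 2. Fitted fold changes are slightly shrunken, and their SE were derived from the test statistic. At most 3 counts in every library of a group were taken as the floor, which covers counting error only. All 8 ligands are reported, for each role at most 3 called genes with the smallest p in the ED and the EEM, and the 3 most similar named genes, of which 1 is not reported here. Scripts were tested on simulated data. Alternatives included DESeq2 1.42.0, other normalizations, filters and covariates, subsets of embryos, and leaving out each embryo. Morphology and sex of the embryos are not in the labels.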

Additional observations from a re-analysis of the deposited data

Results flagged for a closer look

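The interaction term was called for 6 Wnt genes, 1 of 7 ligands and 5 of 79 other pathway genes tested (edgeR, embryo as a block). It stands for a difference of ED over EEM between IVP and IVV embryos, and 0.918% of 16784 genes were called negative and 0.107% positive. It was -4.18 for WNT5A (adjusted p = 2.78e-04), which was higher in the ED of 8 of 8 IVV and 2 of 5 IVP embryos. WNT4 stood at -2.43 (adjusted p = 0.00927), WNT3 at -2.69 (adjusted p = 0.042) and TBX6 at -2.51 (adjusted p = 0.0165). SFRP2 was fitted at -4.50. LGR5 was the one gene on the positive side, fitted at 2.89. SFRP2 held at most 2 counts in the IVV EEM and LGR5 at most 5 in the IVP EEM, so the sizes of their interactions rest on a group at or near the floor of 3 counts. Both passed the filter through groups where they were high, and their interaction calls are not read as tests. A search for single libraries far from the rest of their group, over 26 combinations of ligand and group, found 0, where chance alone would flag about 1 in 20.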

How the results depend on the processing

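Of the single ligand values, 645 kept direction and side of the threshold, 25 lost and 18 gained a call and 43 changed sign, among them 1 called value. WNT3A in the ED was that one, at 0.46 with POU5F1 as a term (added after the data were seen). The uncalled WNT6 turned to -0.02 (embryos with both tissues) and -0.59 (IVPF embryos only) in the ED, and in the EEM to 0.13 (2 surrogate variables), 0.05 (title letter), 0.28 (XIST as a term) and 0.01 (embryos titled IVP without F). WNT5B in the EEM turned to -0.41 (XIST) and -0.06 (embryos with both tissues). The cause was not tested.

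Ligands called lower in the ED numbered 2, but 3 with DESeq2 and without the filter, 1 with 2 surrogate variables, with titles ending in C only, with the title letter or POU5F1 as a term, and with either IVP subset, and 1 to 3 with 1 embryo left out. In the EEM 1 was called lower with 2 surrogate variables, 1 higher with DESeq2, and 0 to 1 in each direction with 1 embryo left out. Pathway genes other than the 8 ligands called lower in the ED were 16, but 5 with 10 counts in every library, 2 with POU5F1, 8 with IVPF embryos and 4 with the others, and 11 to 21 with 1 embryo left out. Those called higher were 2, but 1 with 10 counts, with titles in C and with IVPF embryos, 0 with XIST, POU5F1 and the other IVP embryos, and 1 to 2 with 1 left out. In the EEM, 3 lower became 1 (10 counts, halved counts, titles in C, XIST) or 0 (IVPF), and 3 higher became 0 (XIST) or 1 (IVPF), with 2 to 3 and 3 to 4 with 1 embryo left out.

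Without the replicate block, that is unpaired, WNT7B in IVV embryos was not called lower (0 ligands, also over all 30 libraries or with 10 counts), WNT11 in IVP embryos was not called (0; over all 30 libraries it was, at 1.37), and 0 pathway genes were lower in the ED of IVV embryos. Uncalled values turned sign: WNT7B in IVP embryos to -0.26 and, over all 30 libraries, -0.04, WNT5A to 0.14 and WNT5B to 0.05, and the WNT6 interaction to 0.10 and 0.29 (0.03 without the filter). The pathway genes lower in IVV ED were also 0 with RLE normalization, with no filter and with 10 counts, and 0 to 4 with 1 embryo left out. The filter of 10 counts in every library removes WNT3A, WNT5A and WNT8A, leaving 2 ligands and 17 pathway genes higher in IVV ED, 1 pathway gene in IVP ED, and 0 ligands and 0 pathway genes in the interaction. With DESeq2, 2 ligands and 8 pathway genes had a negative interaction. With halved counts 0 were positive. With 1 embryo left out, 0 to 1 ligands were lower and 4 to 5 higher in IVV ED (5 in the full set, WNT8A included), 0 to 1 higher in IVP ED, and 1 to 2 negative and 0 to 1 positive in the interaction, where 1 to 6 pathway genes were negative and 0 to 1 positive. In IVP ED, 8 to 13 pathway genes were higher.

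With 1 embryo left out, sign changes fell within these ranges: WNT6 from -0.35 to 0.45 in the ED, -0.30 to 0.15 in the EEM (turning to 0.06 without IVP11, 0.08 without IVP14 and 0.04 without VE29), -0.85 to 0.02 between tissues in IVP and -0.42 to 0.44 in the interaction (turning to 0.04 without VE19 and 0.18 without VE24), WNT11 from -0.06 to 0.26 in the ED and -0.58 to 0.05 in the interaction, WNT5B from -0.10 to 0.27 in the EEM (-0.03 without VE26) and -0.15 to 0.02 in IVP, WNT7B from -0.16 to 0.54 in IVP (-0.11 without IVP11), and WNT8A from -1.13 to 1.90 in the interaction. At this depth, WNT8A and WNT3A in the EEM rest on few counts. Over all genes, calls in the ED numbered 998, but 1512 with DESeq2, 1846 without the filter, 431 with 10 counts, 173 with POU5F1, 654 with XIST, 656 with IVPF and 240 with the other IVP embryos. In the EEM they were 561, but 1211 without the filter, 275 with 10 counts, 281 with titles in C, 145 with XIST and 96 with IVPF. Between tissues 3711 in IVV became 2268 without the block (2349 over all 30 libraries) and 1420 with 10 counts, 810 in IVP became 194 with 10 counts, and 172 for the interaction became 435 (DESeq2), 356 (no filter), 301 (no block, all 30 libraries) and 11 (10 counts). With 1 embryo left out, the ED count fell to 639 (VE29), that of tissues in IVP to 473 (IVP14), and that of the interaction to 101 (VE29), 104 (VE28) and 109 (IVP10 or IVPF14).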
